A study of Homo sapiens with 6 samples.

Results

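The genes described here are 9 enzymes of ammonia disposal: the urea cycle enzymes CPS1, OTC, ASS1, ASL and ARG1, the second arginase ARG2, the cofactor synthase NAGS, the glutamine synthetase GLUL and the glutamate dehydrogenase GLUD1. They were chosen by gene symbol, and each symbol matched 1 row, so 9 of the 20289 genes in the deposited table are described. The study asked which genes act downstream of UBE2S, a ubiquitin-conjugating enzyme of the anaphase-promoting complex, in Huh7, a human hepatocellular carcinoma cell line. There were 3 libraries of UBE2S knockout Huh7 cells (UBE2S-KO) and 3 of wild-type Huh7 cells (WT), all made from poly(A) RNA, with no treatment given for either group. How the knockout was made, and whether the replicates came from separate cultures or clones, was not given in the sources used here, so p-values here reflect no more than the spread among these libraries, which may be technical.

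The urea cycle turns ammonia into urea, chiefly in the liver. NAGS makes N-acetylglutamate, the obligatory activator of CPS1. CPS1 joins ammonia and bicarbonate into carbamoyl phosphate in the mitochondrion, and OTC transfers the carbamoyl group to ornithine to give citrulline. In the cytosol ASS1 and ASL convert citrulline and aspartate into arginine and fumarate, and ARG1 splits arginine into urea and ornithine. ARG2 carries out the same cleavage in mitochondria and is the main arginase outside the liver. GLUD1 releases ammonia from glutamate in the mitochondrion, and GLUL fixes ammonia into glutamine. In the liver lobule the urea cycle is strongest in periportal hepatocytes, whereas GLUL is confined to a narrow pericentral layer of hepatocytes, where it depends on beta-catenin.

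The libraries held 21840499 to 25840104 estimated counts in the knockout and 23300336 to 27910396 in wild type. UBE2S itself had 1046, 1062 and 1147 counts in the knockout libraries and 6332, 5129 and 6068 in wild type. As CPM (counts per 1000000 library counts, with edgeR's TMM scaling), this was 45.7 ± 1.70 CPM in the knockout and 223.5 ± 9.37 CPM in wild type (mean ± SD, n = 3 each), and the log2 fold change was -2.29 with an SE of 0.04 (edgeR adjusted p = 1.6e-12). Adjusted p-values are Benjamini-Hochberg values over all tested genes, and a gene counted as called below 0.05. All 12 hepatocyte and hepatoma markers examined, among them ALB, AFP, APOB and HNF4A, were expressed, with a summed level of 33560 to 34150 CPM in the knockout and 35880 to 36410 CPM in wild type; 4 of them were higher and 7 lower in the knockout. The edgeR test called 60.1% of the 13265 genes that passed a filter on low counts, 29.4% as higher and 30.7% as lower. Wild-type replicate 1 differed from its group most: its chi-square, divided by the degrees of freedom, was 8.41 and 10.9 against wild-type replicates 2 and 3, where that pair had 1.80.

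Of the 9 genes, CPS1 and both arginases fell clearly, ASL and GLUL fell slightly, GLUD1 rose slightly, and ASS1, NAGS and OTC did not pass the test. All 9 passed the filter. With 6 of 9 called, the share (66.7%) was near the background of 60.1%. With 5 of 9 lower and 1 higher, the shares were 55.6% and 11.1%, beside 30.7% and 29.4% of all tested genes. The median log2 fold change (knockout over wild type) was -0.16 over the 9 genes and -0.00057 over all tested genes, and the median absolute change was 0.27 and 0.225. The groups of CPM values did not overlap at 6 of the 9 genes, 5 lower and 1 higher; among all tested genes this held for 65.8%, 33.5% lower and 32.3% higher.

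The calls of these 6 genes were also made by DESeq2, 5 lower and 1 higher, beside 23.1% and 21.6% of all genes it tested (44.6% in either direction). When a change beyond 0.5 on the log2 scale was required, CPS1 and ARG2 were called lower and 0 genes higher, beside 5.47% and 4.61% of all tested genes (10.1% in either direction). Since the chromosome neighbours of some of the 9 genes moved together, each gene was also tested after subtraction of the median log2 fold change of its 50 neighbours, the 25 tested genes on each side. Then 4 of the 9 were lower (CPS1, ARG1, ARG2 and GLUD1) and 0 higher. Among all tested genes the shares were 27.7% lower and 26.8% higher (54.5% in either direction). The subtracted median was taken as fixed, so these tests leave out the spread among the neighbours.

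**Figure D1:**
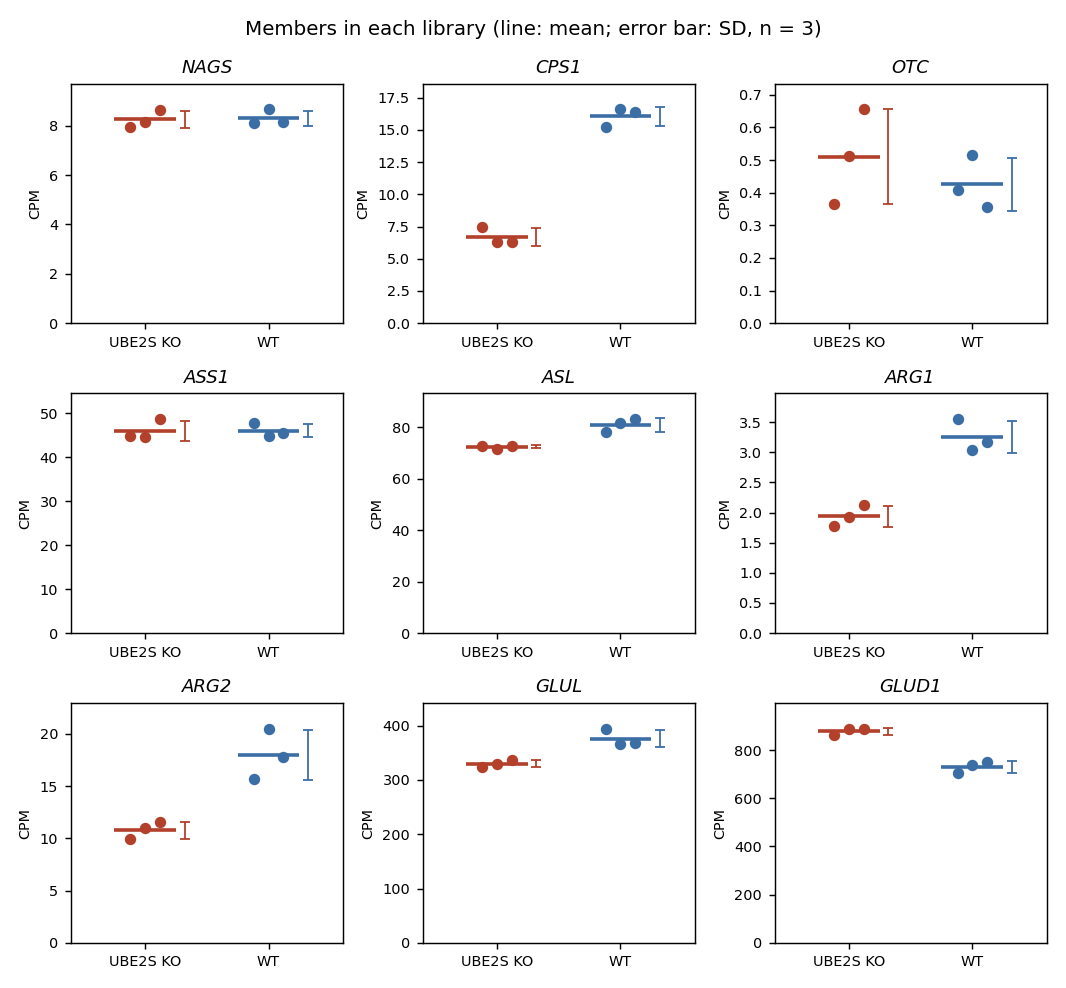
CPM of each gene in each library (points; the vertical axes differ and start at 0), with UBE2S knockout libraries left and wild-type libraries right of them; lines are means and error bars SD over 3 libraries. The groups are apart for CPS1, ASL, ARG1, ARG2, GLUL and GLUD1 and overlap for NAGS, OTC and ASS1.

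CPS1, the entry enzyme and the rate-limiting step of the cycle, changed most. Its counts were 165, 147 and 163 in the knockout libraries and 412, 387 and 459 in the wild-type libraries. Scaled, these were 7.503, 6.285 and 6.284 CPM in the knockout and 15.2, 16.6 and 16.4 CPM in wild type. The highest knockout value was less than any wild-type value by a wide margin. CPS1 fell by 1.27 in log2 units (SE 0.08, edgeR adjusted p = 6.7e-08), which is 2.41-fold lower in the knockout. In bulk RNA, fewer cells that express a gene and less RNA of it per cell cannot be told apart. Of all tested genes, 3.85% had a larger absolute change. CPS1 (ENSG00000021826) lies on the plus strand of chromosome 2 (chr2:210477682-210679107, GRCh38) with 13 transcripts in GENCODE release 29. RefSeq lists 3 starts for it, and gene-level counts do not tell which of them was used. No CPS1 count was fractional in any library, and the only gene annotated over it is CPS1-IT1, an intronic transcript on the same strand.

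NAGS, whose product activates CPS1, did not follow it. It had 175, 191 and 224 counts in the knockout and 219, 202 and 228 in wild type, or 8.25 ± 0.35 CPM in the knockout and 8.30 ± 0.32 CPM in wild type (SD, n = 3 each). The ranges of the groups overlapped. The log2 fold change was -0.0035 (SE 0.08, edgeR adjusted p = 0.99), with a 95% interval of -0.18 to 0.17.

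OTC, which uses the carbamoyl phosphate that CPS1 makes, was near the limit of detection. The knockout libraries held 8, 12 and 17 counts and the wild-type libraries 11, 12 and 10, all under 0.7 CPM. The groups overlapped, and the 95% interval of the log2 fold change ran from -0.45 to 1.03 (estimate 0.29, SE 0.34, edgeR adjusted p = 0.48). At this depth neither a moderate rise nor a modest fall of OTC was detectable. The protein-coding gene AF241726.2 is annotated over OTC on the same strand. No OTC count was fractional, and the part of AF241726.2 in them was not tested.

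ASS1 and ASL, the cytosolic pair that makes arginine, were far more abundant than CPS1. ASS1, which condenses citrulline with aspartate, had 44.9, 44.6 and 48.7 CPM in the knockout and 47.7, 44.9 and 45.6 CPM in wild type. The groups overlapped, and the 95% interval of its log2 fold change was -0.10 to 0.10 (edgeR adjusted p = 0.99). ASL, which cleaves argininosuccinate, had 72.7, 71.7 and 72.6 CPM in the knockout, below the 77.9, 81.5 and 83.1 CPM in wild type. ASL fell by 0.16 (SE 0.04, edgeR adjusted p = 0.0020), a small shift that exceeded the spread within either group. The 50 neighbours of ASL on chromosome 7 had a median log2 fold change of -0.17, and with that shift subtracted ASL was at 0.01 (adjusted p = 0.81). The protein-coding gene AC068533.4 is annotated over ASL on the same strand, and the ASL estimates were fractional in 4 libraries. The part of AC068533.4 in the ASL counts was not tested.

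The arginases fell together. ARG1, the cytosolic liver enzyme, had 39, 45 and 55 counts in the knockout libraries and 96, 71 and 89 in the wild-type libraries. Its level was 1.94 ± 0.17 CPM in the knockout and 3.26 ± 0.26 CPM in wild type, without overlap, and its log2 fold change came to -0.74 (SE 0.15, edgeR adjusted p = 9.3e-04). ARG2, the mitochondrial enzyme, had 9.91, 10.9 and 11.5 CPM in the knockout and 15.7, 20.5 and 17.8 CPM in wild type. It fell by 0.73 (SE 0.10, edgeR adjusted p = 3.1e-05), and the lowest wild-type library still lay above the highest knockout library. Within a library there were 5.59, 5.69 and 5.44 ARG2 counts per ARG1 count in the knockout and 4.43, 6.72 and 5.61 in wild type. These ratios overlapped (difference of log2 ratios 0.02, exact two-sided permutation p = 0.9), although with 3 libraries a group no p below 0.1 can be reached.

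ARG1 and ARG2 are shown here with the 250 bases before their RefSeq starts (GRCh38.p14, plus strand, 5′ to 3′), because 2 isoenzymes with similar falls have unlike proximal promoters. The ARG1 stretch is chr6:131572976-131573225 and the ARG2 stretch chr14:67619670-67619919. In GENCODE release 29 the genes begin within these stretches, at 131573144 for ARG1 and 67619798 for ARG2. Gene-level counts do not tell which start was used. Capitals mark matches on either strand to TATAAA (the TATA box), CCAAT (the CCAAT box), GGGCGG (the GC box) and TTGCNNAA, a form of the C/EBP motif.
ARG1: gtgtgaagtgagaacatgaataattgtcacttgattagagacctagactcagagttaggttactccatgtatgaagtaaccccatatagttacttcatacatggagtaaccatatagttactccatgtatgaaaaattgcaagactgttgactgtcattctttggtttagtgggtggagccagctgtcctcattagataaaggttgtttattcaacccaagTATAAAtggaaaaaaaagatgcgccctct
ARG2: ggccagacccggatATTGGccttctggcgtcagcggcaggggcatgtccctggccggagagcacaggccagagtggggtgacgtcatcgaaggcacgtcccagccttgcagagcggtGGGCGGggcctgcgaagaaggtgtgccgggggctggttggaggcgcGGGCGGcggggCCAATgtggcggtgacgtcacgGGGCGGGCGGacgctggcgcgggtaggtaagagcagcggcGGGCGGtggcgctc
The ARG1 stretch holds a TATAAA whose first base is at -29 from the start, and no other match. The ARG2 stretch holds 5 GGGCGG matches, 2 of which overlap, and CCAAT at -76 and, on the other strand, at -236, and no TATAAA. Neither holds TTGCNNAA. Among 35116 RefSeq windows of this length, TATAAA was found in 10.7%, CCAAT in 32%, GGGCGG in 42.6% and TTGCNNAA in 9.05%. These are letter matches, and no binding was measured.

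Genes on the opposite strand lie over both arginases, and the sources used here do not say whether the counts kept strand. MED23 spans part of ARG1 but shares 0 exonic bases with it, and had 47.7 ± 1.75 CPM in the knockout and 47.0 ± 1.56 CPM in wild type. VTI1B shares 904 exonic bases with ARG2, 37.4% of the ARG2 exons, and the ARG2 estimates were fractional in all 6 libraries. VTI1B had 73.6 ± 0.52 CPM in the knockout and 73.1 ± 1.55 CPM in wild type (log2 fold change 0.01, SE 0.03, edgeR adjusted p = 0.84). Its part in the ARG2 counts was not tested.

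GLUL and GLUD1, the enzymes that bind and release ammonia around glutamate, were the most abundant of the 9 and differed in direction. GLUL had 324, 330 and 336 CPM in the knockout, below the 394, 366 and 368 CPM in wild type, and fell by 0.19 (SE 0.03, edgeR adjusted p = 3.5e-04). Its chromosome 1 neighbours had a median of -0.11, and with that subtracted GLUL was at -0.08 and lost its call (adjusted p = 0.062). GLUD1 had 862, 887 and 888 CPM in the knockout, above the 703, 736 and 750 CPM in wild type. It rose by 0.27 (SE 0.03, edgeR adjusted p = 8.0e-06).

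The rise of GLUD1 was smaller than the median rise of the genes around it, and within their range. GLUD1 (ENSG00000148672) lies on the minus strand of chromosome 10 (chr10:87050486-87094866, GRCh38). Of its 50 nearest tested genes 39 were higher and 2 lower in the knockout, with a median log2 fold change of 0.43, and of 511 tested genes on chromosome 10 as a whole 310 were higher and 101 lower, with a median of 0.31. With the shift of its neighbours subtracted, GLUD1 changed sign, to -0.16 (SE 0.03, adjusted p = 6.1e-04). This SE and p take the neighbours' median as fixed, although single neighbours ran from -0.77 to 1.73. They do not measure whether GLUD1 departed from its neighbourhood. SHLD2, which overlaps GLUD1 on the opposite strand and shares 464 exonic bases with it (13.2% of the GLUD1 exons), had 107.6 ± 0.43 CPM in the knockout and 81.6 ± 1.37 CPM in wild type, higher by 0.40 in log2 units (SE 0.03, edgeR adjusted p = 3.3e-07). The part of SHLD2 in the GLUD1 counts was not tested.

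**Figure D2:**
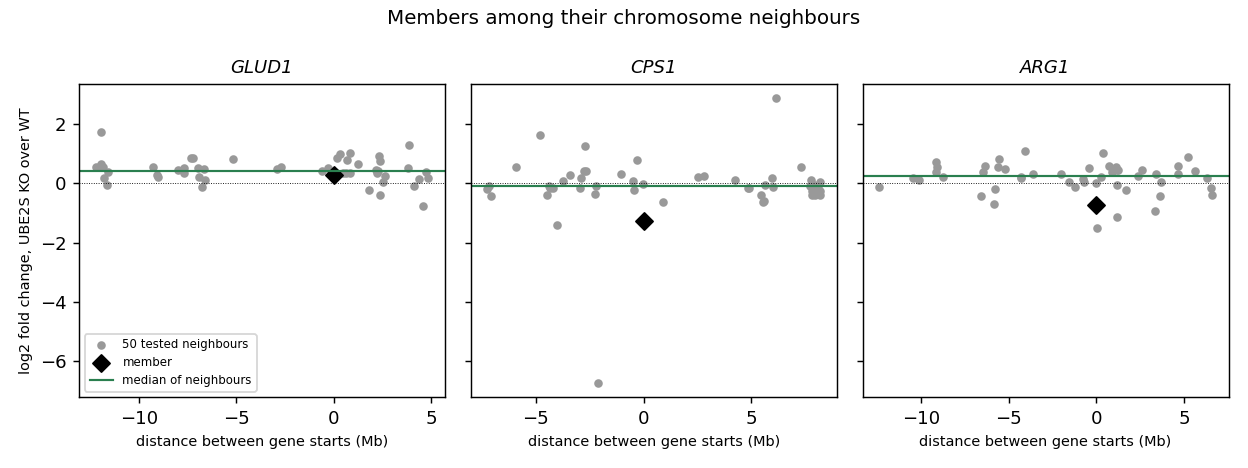
Log2 fold change (UBE2S knockout over wild type) of GLUD1, CPS1 and ARG1 (black diamonds) and of the 50 nearest tested genes of each (grey), against the distance between gene starts in megabases; the green line is the median of the neighbours. GLUD1 sits below the median of its neighbours (0.43), CPS1 far below that of its own (-0.08) and ARG1 below that of its own (0.23). Around each of them some neighbours are lower still.

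The neighbourhoods of CPS1 and the arginases differed from that of GLUD1. CPS1 had 11 of 50 neighbours higher and 20 lower (median -0.08), and after subtraction it was at -1.19. ARG1 lay among genes of chromosome 6 that were mostly higher, 31 of 50 against 10 lower (median 0.23), and after subtraction it was at -0.98 (adjusted p = 0.000145). ARG2 had a neighbour median of -0.09 and was then at -0.63 (adjusted p = 1.3e-04). CPS1, ARG1 and ARG2 thus kept both direction and call, and ASS1, NAGS and OTC remained uncalled, at 0.02, -0.10 and 0.26.

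**Figure D3:**
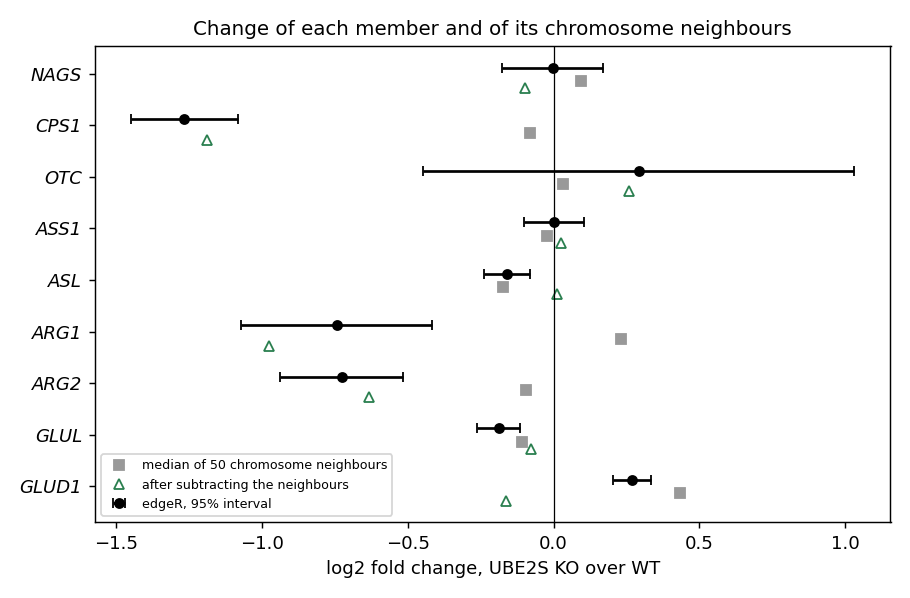
Log2 fold change (UBE2S knockout over wild type) of each gene with its 95% interval from edgeR (black), the median of its 50 chromosome neighbours (grey squares) and its value after that median was subtracted (green triangles). CPS1, ARG1 and ARG2 stay at or below -0.63, ASL and GLUL move close to 0, and GLUD1 moves below 0.

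Levels of different genes were compared per kilobase of annotated exon (CPM per kb). GLUD1 was highest, with 249.8 ± 4.08 in the knockout and 207.3 ± 6.81 in wild type, followed by GLUL (36.5 ± 0.66 in the knockout, 41.6 ± 1.70 in wild type), ASL (22.6 ± 0.18 in the knockout, 25.3 ± 0.83 in wild type) and ASS1 (15.1 ± 0.75 in the knockout, 15.1 ± 0.49 in wild type). ARG2 followed at 4.46 ± 0.34 CPM per kb in the knockout and 7.44 ± 0.98 in wild type, and NAGS at 2.92 ± 0.12 in the knockout and 2.94 ± 0.11 in wild type. The arginase typical of the liver, ARG1, was lower, at 0.99 ± 0.09 CPM per kb in the knockout and 1.66 ± 0.13 in wild type, and CPS1 was at 0.62 ± 0.07 in the knockout and 1.49 ± 0.07 in wild type. OTC was last in both groups, at 0.30 ± 0.08 CPM per kb in the knockout and 0.25 ± 0.05 in wild type. The order was the same in both groups. In wild type ARG1 and CPS1 were close, and the longest transcript in place of all exons put CPS1 above ARG1, at 2.76 against 2.13 CPM per kb; in the knockout it left CPS1 below ARG1, at 1.15 against 1.27. The cells thus held abundant mRNA for the enzymes around glutamate and arginine synthesis and little for the mitochondrial entry into the cycle, in both groups.

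**Figure D4:**
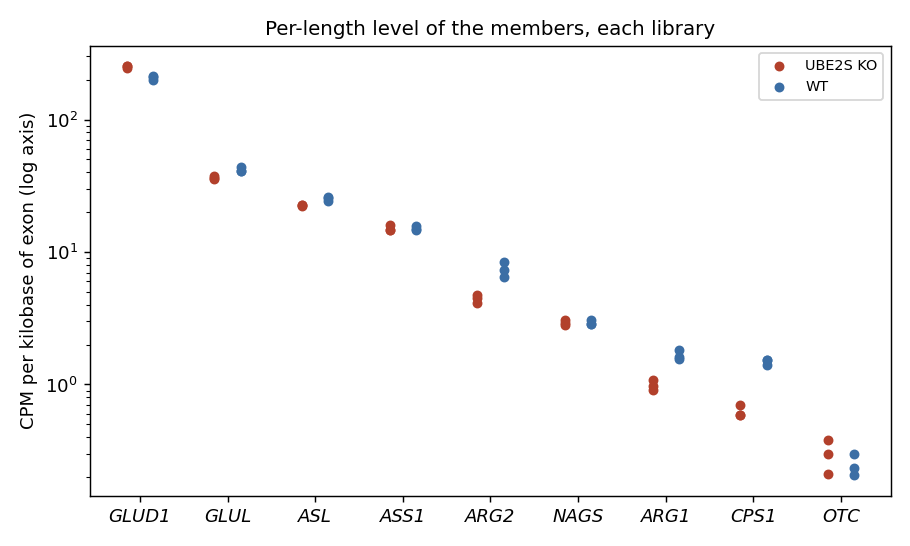
CPM per kilobase of annotated exon (log axis) in each library, genes ordered by their wild-type mean, with UBE2S knockout points left of wild-type points. Levels run from above 200 for GLUD1 to below 1 for OTC, and CPS1, ARG1 and ARG2 show the widest gaps between groups.

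Ratios within a library do not depend on library scaling. There were 2.32, 1.90 and 1.87 CPS1 counts per 100 GLUL counts in the knockout and 3.87, 4.53 and 4.45 in wild type. CPS1 counts per 100 ASS1 counts were 16.7, 14.1 and 12.9 in the knockout and 31.9, 37.0 and 35.9 in wild type. GLUL counts per 100 GLUD1 counts were 37.6, 37.2 and 37.9 in the knockout and 56.0, 49.8 and 49.1 in wild type. None of these 3 ratios overlapped between groups, and each log2 ratio was lower in the knockout, by -1.08, -1.27 and -0.46 in the order given. The exact two-sided permutation p was 0.1 for each, the smallest possible here, and 0.133 after adjustment over the 4 ratios examined, so none passed the threshold.

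Genes with the profile most like that of CPS1 over the 6 libraries, by Pearson r of log2(CPM + 1) among 9460 other tested genes averaging 10 CPM or more, were SQLE and VPS50 (r = 0.9988 each), PHKA2 (0.9987), TEP1 and LMNB2 (0.9984 each). SQLE encodes a sterol synthesis enzyme and LMNB2 a nuclear lamin. The 6 points share the 2 groups, and r has no p here: SQLE had 104.4 ± 1.70 CPM in the knockout and 124.7 ± 1.67 CPM in wild type, and TEP1 24.6 ± 1.21 CPM in the knockout and 43.0 ± 1.42 CPM in wild type. Among the 9 genes themselves, r with CPS1 was 0.957 for ASL, 0.931 for ARG2, 0.927 for ARG1, 0.885 for GLUL and -0.966 for GLUD1, and between -0.471 and 0.0414 for OTC, ASS1 and NAGS.

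The bicarbonate that CPS1 uses is supplied in mitochondria by carbonic anhydrases, and both of their genes fell. CA5A, the liver form, had 28, 21 and 41 counts in the knockout and 104, 95 and 103 in wild type, or 1.25 ± 0.34 CPM in the knockout and 3.87 ± 0.20 CPM in wild type (log2 fold change -1.61, SE 0.18, edgeR adjusted p = 8.9e-06). CA5B had 3.30 ± 0.22 CPM in the knockout and 6.95 ± 0.30 CPM in wild type (log2 fold change -1.07, SE 0.11, edgeR adjusted p = 2.3e-06). CA5B was at -0.63 after its neighbours' median of -0.44 was subtracted, and remained called (adjusted p = 3.0e-04). Among the carriers, SLC25A15, which exchanges ornithine for citrulline, rose slightly (0.18, SE 0.05, edgeR adjusted p = 0.014), a call lost without knockout replicate 3 (0.16, adjusted p = 0.066). SLC25A13, the aspartate-glutamate carrier citrin, fell by 0.29 (SE 0.04, edgeR adjusted p = 2.9e-05), and was at -0.02 with its neighbours' shift subtracted (adjusted p = 0.615). In all, 3 of 6 tested genes of this list were lower (50%) and 1 higher (16.7%), beside 30.7% and 29.4% of all tested genes. The share called in either direction, 66.7%, was near the 60.1% of all tested genes.

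Among other enzymes of glutamine and glutamate metabolism, 3 of 16 tested genes were higher (18.8%) and 8 lower (50%), beside 29.4% and 30.7% of all tested genes, and the median log2 fold change was -0.08. The lower calls numbered 5 with DESeq2, and also 5 without knockout replicate 2, knockout replicate 3 or wild-type replicate 2. The liver-type glutaminase GLS2 had 3 to 7 counts per library in the knockout and 2 to 10 in wild type and was not tested. GLUD2, a near-identical copy of GLUD1, had 19.0 ± 0.07 CPM in the knockout and 21.5 ± 1.22 CPM in wild type (log2 fold change -0.18, SE 0.06, edgeR adjusted p = 0.019). The counts of GLUD1 and GLUD2 added together were higher by 0.26 in log2 units (SE 0.03, edgeR adjusted p = 1.2e-05). The GLUD1 estimates were fractional in all 6 libraries and those of GLUD2 in 5, and how reads shared with other genes were divided was not tested.

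In the same list the transaminase genes went both ways. GPT2 (0.39, SE 0.04) and PSAT1 (0.23, SE 0.04) rose, as did GOT1 (0.13, SE 0.03). GOT2 fell by 0.23 (SE 0.03, edgeR adjusted p = 2.4e-05), and was at -0.31 with its neighbours' shift subtracted. GPT, with 1.15 CPM in the knockout and 0.85 CPM in wild type, was not called (edgeR adjusted p = 0.14). NADSYN1, the glutamine-dependent NAD synthetase, fell by 0.51 (SE 0.06). GOT1, on chromosome 10 like GLUD1, was at -0.26 with its neighbours' shift subtracted. The CTP synthases CTPS1 (-0.26, SE 0.04) and CTPS2 (-0.29, SE 0.06) fell, and were at 0.00 and 0.15 after that subtraction, without a call. CAD, which makes carbamoyl phosphate from glutamine for pyrimidines, fell by 0.10 (SE 0.03, edgeR adjusted p = 0.026), and ASNS, asparagine synthetase, had 140.0 ± 3.52 CPM in the knockout and 147.4 ± 6.33 CPM in wild type (edgeR adjusted p = 0.099); ASNS was called higher, at 0.20, once its neighbours' shift was subtracted (adjusted p = 5.6e-04). GLUD2 and CAD were at the edge of the threshold: DESeq2 did not call them (adjusted p = 0.11 and 0.10), and leaving out knockout replicate 2 or 3 or wild-type replicate 2 ended both calls, with adjusted p between 0.052 and 0.086. PPAT of purine synthesis, named after its values were seen (-0.13, edgeR adjusted p = 0.025), lost its call under those same settings, with adjusted p between 0.061 and 0.11, and without wild-type replicate 3 (0.11). CAD also lost its call without knockout replicate 1 (0.078) and GLUD2 without wild-type replicate 3 (0.072).

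Enzymes that draw on arginine and ornithine changed more, with 8 of 17 tested genes higher and 8 lower. These shares were 47.1% each, beside 29.4% higher and 30.7% lower of all tested genes. GATM, which uses arginine for creatine synthesis, had 9.93 ± 0.46 CPM in the knockout and 72.9 ± 2.11 CPM in wild type, the largest fall among the related genes (log2 fold change -2.88, SE 0.05). The spermidine synthase gene SRM had 58.0 ± 1.13 CPM in the knockout and 92.4 ± 7.27 CPM in wild type, and the proline dehydrogenase gene PRODH had 1.46 ± 0.18 CPM in the knockout and 2.63 ± 0.13 CPM in wild type; both fell, by 0.67 (SE 0.05) and 0.85 (SE 0.17). In the other direction ODC1, which turns ornithine into putrescine, had 387.5 ± 3.82 CPM in the knockout and 266.1 ± 8.51 CPM in wild type (log2 fold change 0.54, SE 0.03, edgeR adjusted p = 1.7e-08). OAT, which turns ornithine into a precursor of glutamate and proline, had 119.7 ± 0.79 CPM in the knockout and 82.9 ± 3.64 CPM in wild type (0.53, SE 0.04), and the proline synthesis gene PYCR1 rose by 0.41 (SE 0.03). OAT lies on chromosome 10 and was at 0.13 (adjusted p = 0.0078) after the shift of its neighbours was subtracted, whereas ODC1 was at 0.54.

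Transporters of glutamine, glutamate and cationic amino acids were mostly higher, with a median of 0.345. Of 14 tested genes 12 rose (85.7%) and 1 fell (7.14%), beside 29.4% and 30.7% of all tested genes. After subtraction of the neighbours 11 rose and 1 fell, beside 26.8% and 27.7% of all tested genes. SLC7A7, a light chain that exports cationic amino acids such as arginine, had 20.6 ± 1.04 CPM in the knockout and 6.40 ± 0.32 CPM in wild type (log2 fold change 1.68, SE 0.07), while SLC7A2, the cationic amino acid transporter prominent in liver, fell by 0.56 (SE 0.04) to 159.9 ± 1.11 CPM in the knockout, against 235.6 ± 11.3 CPM in wild type. The glutamate transporter gene SLC1A3 rose most (2.19, SE 0.07), and its relative SLC1A1 rose by 1.21 (SE 0.08).

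**Figure D5:**
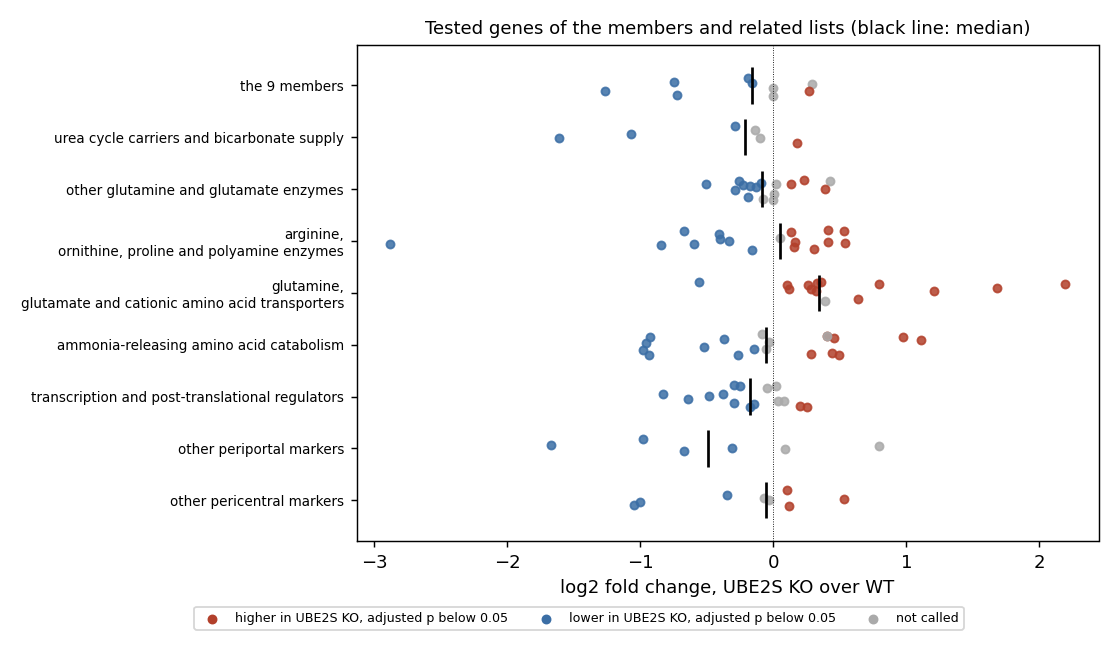
Log2 fold change (UBE2S knockout over wild type) of every tested gene in the 9 enzymes and in 8 related gene lists, with higher calls in red, lower calls in blue, genes not called in grey and the list median as a black line. The transporter list lies mostly above 0 (median 0.345), the periportal list mostly below 0 (median -0.49).

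Enzymes of amino acid breakdown, listed together with the monoamine oxidase gene MAOB and the purine deaminase genes ADA, AMPD2 and AMPD3, went both ways. Not every enzyme of this list releases ammonia in its own reaction. Of 19 tested genes 7 were higher (36.8%) and 8 lower (42.1%), beside 29.4% and 30.7% of all tested genes. HAL, the histidine ammonia-lyase (-0.98, SE 0.22), TDO2, tryptophan dioxygenase (-0.96, SE 0.21), and the monoamine oxidase gene MAOB (-0.94, SE 0.04) fell most. ADA, adenosine deaminase (1.11, SE 0.16), and HPD of tyrosine breakdown (0.97, SE 0.14) rose most, followed by SDSL (0.49, SE 0.14), whose call was lost without knockout replicate 3 (0.40, adjusted p = 0.054). Of the regulators, 9 of 15 tested genes were lower (60%) and 2 higher (13.3%), beside 30.7% and 29.4% of all tested genes. FOXA3 fell by 0.83 (SE 0.05), the coactivator gene PPARGC1A by 0.64 (SE 0.12) and CEBPA, which encodes a factor known to act on urea cycle genes, by 0.48 (SE 0.04), to 237.4 ± 2.97 CPM in the knockout, against 331.5 ± 19.1 CPM in wild type. CEBPA was at -0.10 (adjusted p = 0.039) with the shift of its chromosome 19 neighbours subtracted. FOXA2 rose by 0.20 (SE 0.04). Once the neighbours' shift was subtracted, 4 of the 15 regulators were higher and 8 lower, beside 26.8% and 27.7% of all tested genes. SIRT3, a mitochondrial deacetylase, rose by 0.26 (SE 0.07, edgeR adjusted p = 0.0080), without a DESeq2 call (adjusted p = 0.057).

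Other zonation markers were mostly scarce. Of 11 further periportal markers 6 could be tested, and 0 were higher and 4 lower (66.7%), among them PIGR (-1.67, SE 0.22) and HAL. Among all tested genes 29.4% were higher and 30.7% lower. PIGR and HAL each averaged no more than 2.16 CPM in either group. Of 13 further pericentral markers 8 could be tested, and 3 were higher and 3 lower (37.5% each), near those shares of all tested genes. Among known beta-catenin targets in this list, NKD1 (-1.05, SE 0.10) and RNF43 (-0.35, SE 0.05) fell, LGR5 (0.11, SE 0.04) and ZNRF3 (0.12, SE 0.04) rose slightly, and AXIN2 (-0.07, SE 0.08, edgeR adjusted p = 0.46) and TBX3 (-0.03, SE 0.05, edgeR adjusted p = 0.59) were not called. OAT rose, and the ammonium transporter gene RHBG fell, with 2.11 ± 0.11 CPM in the knockout and 4.24 ± 0.74 CPM in wild type. LGR5 and ZNRF3 lost their calls with DESeq2 (adjusted p = 0.18 and 0.14) and when any single knockout library or wild-type replicate 3 was left out (adjusted p between 0.056 and 0.17). LGR5 also lost its call without wild-type replicate 2 (0.067). With their neighbours' shift subtracted, LGR5 was at 0.15 and ZNRF3 at 0.43, both called. The higher calls among pericentral markers numbered 1 instead of 3 with DESeq2, and likewise when a knockout library or wild-type replicate 3 was left out. Among periportal markers, 1 was called higher without knockout replicate 3.

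Over the 8 related lists together, 78 of 99 tested genes were called (78.8%), 35 higher and 43 lower, beside the 60.1% of all tested genes. Markers of other cell types moved as well. Immune markers summed to 179.4 to 182.5 CPM in the knockout and 290 to 313.4 CPM in wild type, with all 3 tested of 8 lower and CD3E at 0 in every library. Stromal markers summed to 26.5 to 28.4 CPM in the knockout and 16.6 to 16.8 CPM in wild type, with 4 of 5 tested higher and 1 lower. Endothelial markers summed to 2.27 to 2.52 CPM in the knockout and 5.695 to 7.08 CPM in wild type, with the only tested gene lower and KDR and CLEC4G at 0. Their part in the results was not tested.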

How the data were processed

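Poly(A) RNA of 6 Huh7 libraries was measured, 3 UBE2S knockout and 3 wild type, grouped and numbered by sample title. The authors deposited estimated counts per gene, not normalized; 2670 to 2835 genes per library had values that were not whole. Tools named in the submitters' processing notes are HISAT2, Bowtie2 2.2.8, DESeq2 and StringTie 1.3.1, without their roles; annotation, build and strand setting were not given in the sources used here. Values were rounded, genes kept by filterByExpr (minimum count 10), libraries scaled by TMM, and knockout compared with wild type by edgeR 4.0.16 quasi-likelihood F tests (R 4.3.3), with Benjamini-Hochberg adjustment over 13265 genes and a threshold of 0.05. SE came from the fold change and F; 95% intervals used the t distribution. On simulated data with 50 genes changed at each size, the procedure recovered 66% of log2 changes of 0.3 and 84% of 0.5. It recovered 94% of changes of 1 and 98% of 2. Far fewer genes were changed there than were called in these data.

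Positions and exon lengths came from GENCODE release 29 (GRCh38), which held 20171 of the 20289 identifiers. The neighbourhood shift is the median log2 fold change of the 25 tested genes on each side. It was entered as a fixed offset, without an error of its own, and the model refitted. The genes, the 8 related lists and the tests were chosen with earlier results of these data known. Related genes named were the 3 largest called changes per direction and list, and genes next to a member. PPAT, GOT2, GPT, AXIN2, TBX3, MED23, VTI1B and SHLD2 fall outside that rule. Alternatives were other scalings and filters, DESeq2 1.42.0, limma-voom (limma 3.58.1), leaving out each library, a replicate block, and a minimum fold. Intervals cover the spread between libraries and counting error only. Some items are not reported here.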

Additional observations from a re-analysis of the deposited data

How the results depend on the processing

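The 5 lower members (CPS1, ARG1, ARG2, ASL, GLUL) and the 1 higher member (GLUD1) kept direction and call under RLE, upper-quartile and total-count scaling, other filters, DESeq2, limma-voom, and with each library left out in turn, where CPS1 ranged from -1.35 to -1.22, ARG1 from -0.82 to -0.68, ARG2 from -0.82 to -0.63 and GLUD1 from 0.24 to 0.29. They also kept it with the replicate number as a block (3872 genes higher and 4041 lower in all, against 3903 and 4072 without); same-numbered libraries shared only a number, their deviations from the group means correlating at 0.0241, -0.0369 and 0.0173. Among related genes the block ended only the call of LGR5 (adjusted p = 0.073). With a minimum log2 fold of 0.5, 611 genes were higher and 726 lower, 0 members were higher and 2 lower (CPS1 and ARG2), and 7 related genes were higher and 11 lower; the rule asks for a larger change by construction. With the chromosome neighbourhood subtracted, 0 members were higher and 4 lower. GLUD1 (-0.16), ASL (0.012), GOT1 (-0.26), CTPS1 (0.00032), CTPS2 (0.15), ALDH18A1 (-0.19) and SLC38A2 (-0.0036) then changed sign, by the subtraction itself. The log2 ratio of CPS1 to GLUL stayed between -1.18 and -1.02 with a library left out. No scaling moved the median of all genes by 0.1. Depth limits OTC, with 8 to 17 counts a library, and GLS2, with 2 to 10.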
